A study of Saccharomyces cerevisiae with 8 samples.

Results

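SDH1, SOD2, CIT1 and ATP1 are 4 nuclear genes whose products work in the mitochondrion, and they are described here by the peaks of the transcription factor Gcr1 found upstream of them in chromatin immunoprecipitation sequencing (ChIP-seq) of Saccharomyces cerevisiae. A peak was counted for a gene if it was centred no more than 1000 bp before and 200 bp after the start codon. The genes were chosen from the deposited peak lists, so the presence of a peak and its height are given as a description, with no test. They are 4 of 6002 nuclear protein-coding genes, and their 14 peak entries are part of 1064 entries over 4 lists. CIT1 and ATP1 have peaks within 500 bp of a tRNA gene (8 entries) and SDH1 and SOD2 do not (6 entries).

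The cultures formed 4 groups of 2 replicates, Gcr1(S) and Gcr1(U), each sampled at 12 h and at 6 h. Gcr1(S) comes from the spliced GCR1 transcript and Gcr1(U) from the transcript with its intron. The Gcr1(S) strain carried GCR1S-TAP::his3MX6 and the Gcr1(U) strain GCR1U-TAP::his3MX6, where TAP is the tandem affinity purification tag that binds IgG beads. Every group also carried GCR2-5Flag::hphMX6, a tagged allele of the Gcr1 partner Gcr2, in the laboratory strain BY4741. Each form is represented by 1 strain, and the labels do not say whether that strain also made the other form. All cultures grew at 30 °C in rich medium (YPD) with 2% glucose, and the labels call the 12 h cultures diauxic shift and the 6 h cultures exponential phase. There is 1 list of values for each group, so none has a replicate error. Ranges in brackets after a value are exact 95% intervals for counting error only, and rest on 129 (CIT1, Gcr1(S) at 12 h) to 881 (SDH1, Gcr1(U) at 6 h) derived tags per peak. Signal independent of Gcr1 was not measured, since neither input DNA nor an untagged strain was part of the analysis.

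Gcr1 is best known as an activator of glycolytic genes, which it reaches through short CT boxes in their promoters. Yeast on glucose ferments and holds most respiratory genes low. When glucose runs out at the diauxic shift, cells turn to ethanol and raise the tricarboxylic acid (TCA) cycle, the respiratory chain and ATP synthase, chiefly through the Hap2/3/4/5 complex. SDH1 encodes the flavoprotein subunit of succinate dehydrogenase, which is both a TCA cycle enzyme and complex II of the respiratory chain. CIT1 encodes mitochondrial citrate synthase, the entry enzyme of the cycle. ATP1 encodes the alpha subunit of the F1 part of ATP synthase. SOD2 encodes the manganese superoxide dismutase of the mitochondrial matrix, which removes superoxide that respiration gives off.

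The peaks lay in different settings. The SDH1 peak sat at the start of the gene, with its centre 43 bp (12 h) and 41 bp (6 h) upstream of the start codon in Gcr1(S), and 42 bp (12 h) and 41 bp (6 h) in Gcr1(U). Its widest window, in Gcr1(U) at 6 h, spanned XI 171079 to 171261 of sacCer3 and held 51 bp of the SDH1 coding sequence (XI 169207 to 171129, minus strand). The interval of 653 bp between SDH1 and the divergent AVT3, a vacuolar amino acid transporter gene, holds no tRNA gene. The same peak also lay 611 to 613 bp upstream of AVT3, so it falls within the promoter range of both genes.

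The SOD2 peak was found in the Gcr1(S) lists only. Its centre lay 330 bp upstream of the start codon at 12 h (VIII 123863 to 123977) and 341 bp at 6 h (VIII 123846 to 124016). SOD2 (VIII 122889 to 123590, minus strand) is separated by 518 bp from TDA3, which lies on the same strand, and the window overlapped neither gene. The nearest peak of Gcr1(U) was 9158 bp away at 12 h and 9123 bp away at 6 h, on a tRNA gene.

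The CIT1 and ATP1 peaks lay farther out and covered tRNA genes, which RNA polymerase III transcribes. The CIT1 peak was centred 809 bp (12 h) and 853 bp (6 h) upstream in Gcr1(S), and 822 bp (12 h) and 785 bp (6 h) upstream in Gcr1(U). In all 4 lists that centre lay on SUF10, a tRNA gene at XIV 631846 to 631917. The ATP1 peak was centred 568 bp (12 h) and 669 bp (6 h) upstream in Gcr1(S), and 664 bp (12 h) and 565 bp (6 h) upstream in Gcr1(U). Its windows overlapped the tRNA gene YNCB0002W at II 36398 to 36488. The nearest tRNA gene was 8521 to 8557 bp from the SDH1 windows and 7667 to 7684 bp from the SOD2 windows, so the split at 500 bp is not close for any of the genes.

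**Figure D1:**
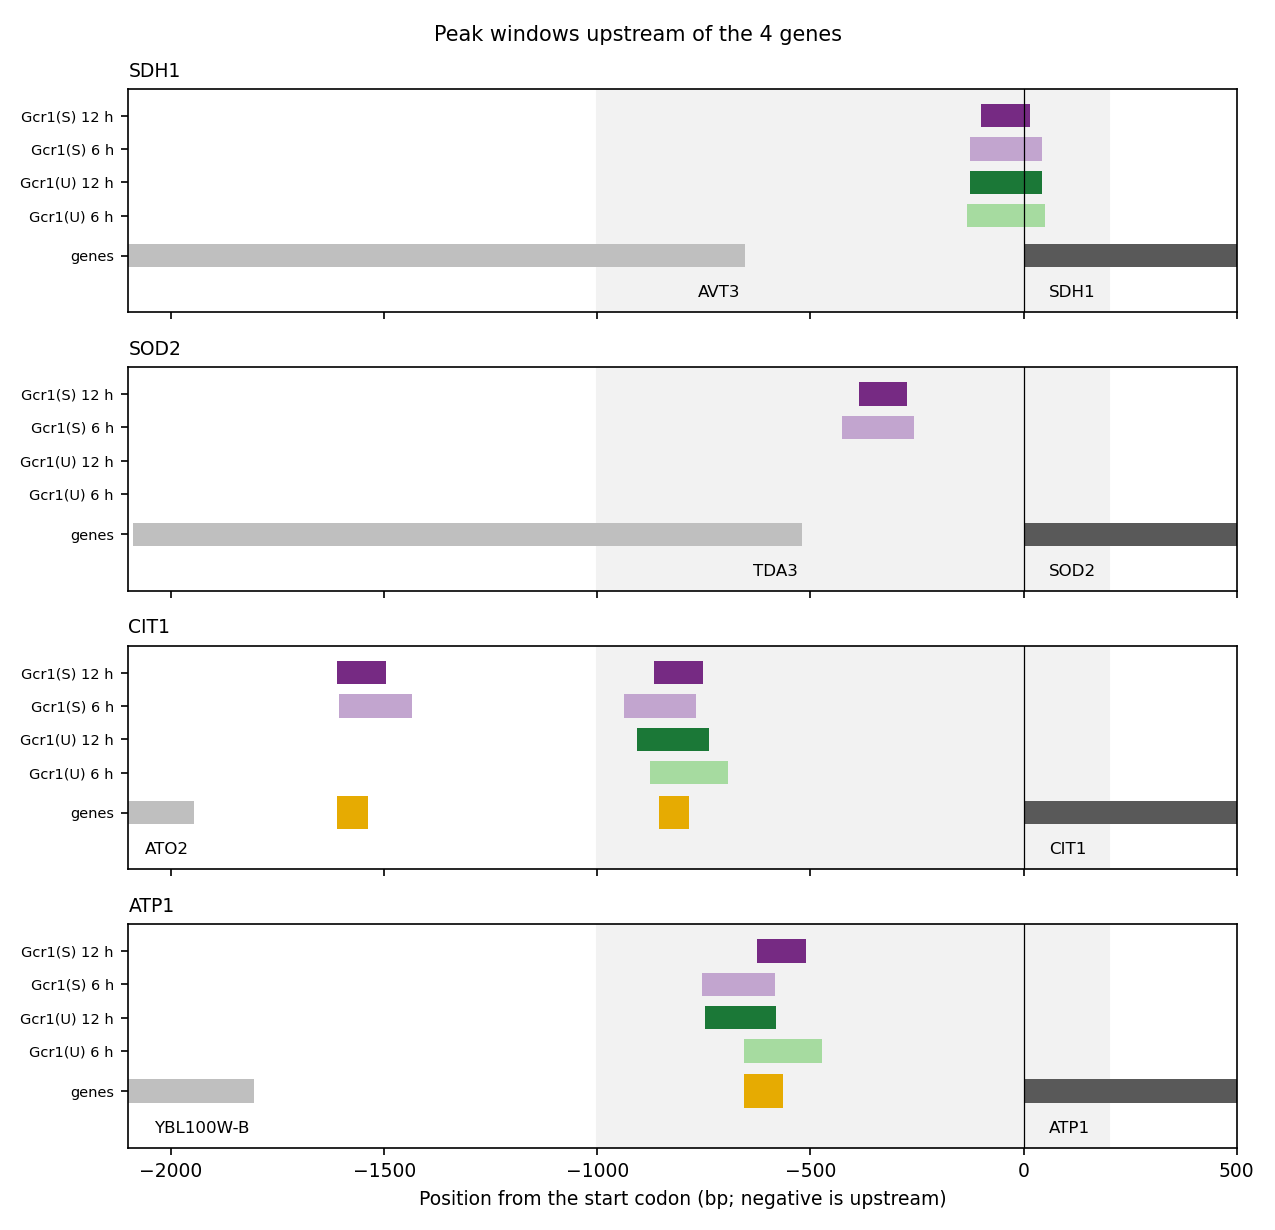
Windows of the peaks (coloured bars, 1 row per list) against position from the start codon in bp, with the gene in dark grey, the next coding gene upstream in light grey, tRNA genes in yellow and the range of 1000 bp upstream to 200 bp downstream shaded. The SDH1 windows overlap the start codon, the SOD2 windows occur in Gcr1(S) only, and the CIT1 and ATP1 windows lie on tRNA genes.

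CIT1 has a second tRNA gene upstream, YNCN0017W at XIV 632599 to 632672, outside the range used. Gcr1(S) had a peak there, centred 1553 bp upstream at 12 h and 1520 bp at 6 h. It held 244 normalized tags (206 to 288) at 12 h and 507 (466 to 552) at 6 h, close to the values at SUF10. The Gcr1(U) lists had no peak at this second site. The farthest peak inside the range was that of CIT1 itself, at 853 bp.

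SDH1 had the most tags of these peaks in Gcr1(U) at 6 h, and in Gcr1(S) at 12 h it shared the highest level with SOD2. A normalized tag is a sequenced fragment in the peak window scaled to library size by the authors. SDH1 had 706 tags (640 to 778) in Gcr1(S) at 12 h, 458.5 (419 to 501) in Gcr1(S) at 6 h, 365 (335 to 398) in Gcr1(U) at 12 h and 587 (549 to 627) in Gcr1(U) at 6 h. The 2 forms thus moved in opposite directions between the times, and no pair of the 4 intervals overlapped. By tags it ranked 27 of 207 nuclear peaks in Gcr1(S) at 12 h, 89 of 207 at 6 h, 105 of 272 in Gcr1(U) at 12 h and 19 of 272 at 6 h. The fold over local background, the authors' own value for each peak, was 3.64 in Gcr1(S) at 12 h, 3.29 in Gcr1(S) at 6 h, 2.12 in Gcr1(U) at 12 h and 2.14 in Gcr1(U) at 6 h. On that scale the SDH1 peak of Gcr1(U) was near the lowest fold listed at either time (2.01 at 12 h and 2.00 at 6 h), whatever its tags.

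SOD2 had 659 tags (595 to 728) in Gcr1(S) at 12 h and 444 (405 to 485) in Gcr1(S) at 6 h. The intervals did not overlap, and the fold over local background was 4.71 at 12 h and 2.79 at 6 h. Of the 207 nuclear peaks in each Gcr1(S) list, 69 were overlapped by neither Gcr1(U) list, SOD2 among them. Of these, 37 were near a tRNA gene. Among the other 32 SOD2 ranked 7 by tags at both times, and 25 of the 32 had more tags at 12 h than at 6 h. The same held for 58 of all 207 nuclear peaks of Gcr1(S). It held for 48 of the 80 that were neither near a tRNA gene nor at a glycolytic promoter. Of the 272 nuclear peaks that were listed for Gcr1(U), 259 at 12 h and 245 at 6 h had fewer tags than SOD2 had in Gcr1(S) at the same time. The Gcr1(U) lists used wider windows and reached lower, to 69.8 tags at 12 h and 69.6 at 6 h. The lowest nuclear peaks of Gcr1(S) had 169 tags at 12 h and 161 at 6 h. These counts therefore do not say whether a peak of Gcr1(U) at SOD2 would have been listed. The lists give no value for Gcr1(U) at SOD2, so no ratio of the forms can be given there, and an unlisted site is not a measured 0.

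CIT1 had 222 tags (185 to 263) in Gcr1(S) at 12 h, 475 (435 to 518) in Gcr1(S) at 6 h, 431 (398 to 467) in Gcr1(U) at 12 h and 323 (295 to 353) in Gcr1(U) at 6 h. ATP1 had 222.5 tags (186 to 264) in Gcr1(S) at 12 h, 479 (438 to 522) in Gcr1(S) at 6 h, 446 (412 to 482) in Gcr1(U) at 12 h and 361 (331 to 392) in Gcr1(U) at 6 h. The 2 genes, on different chromosomes, had intervals that overlapped in every list. Both were lowest in Gcr1(S) at 12 h and highest in Gcr1(S) at 6 h, with Gcr1(U) in between. Their values sat within the tRNA class, ranking 54 (CIT1) and 51 (ATP1) of 118 peaks near tRNA genes in Gcr1(S) at 12 h, and 52 (CIT1) and 19 (ATP1) of 98 in Gcr1(U) at 6 h. The fold over local background at ATP1 was 2.14 in Gcr1(S) at 12 h, 3.59 in Gcr1(S) at 6 h, 3.51 in Gcr1(U) at 12 h and 2.07 in Gcr1(U) at 6 h. At CIT1 it was 2.41 (12 h) and 3.20 (6 h) in Gcr1(S), and 2.90 (12 h) and 2.35 (6 h) in Gcr1(U). The caller's p-values against local background for all 14 entries ran from 9.56e-150 (ATP1, Gcr1(U) at 12 h) to 1.57e-14 (ATP1, Gcr1(S) at 12 h).

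**Figure D2:**
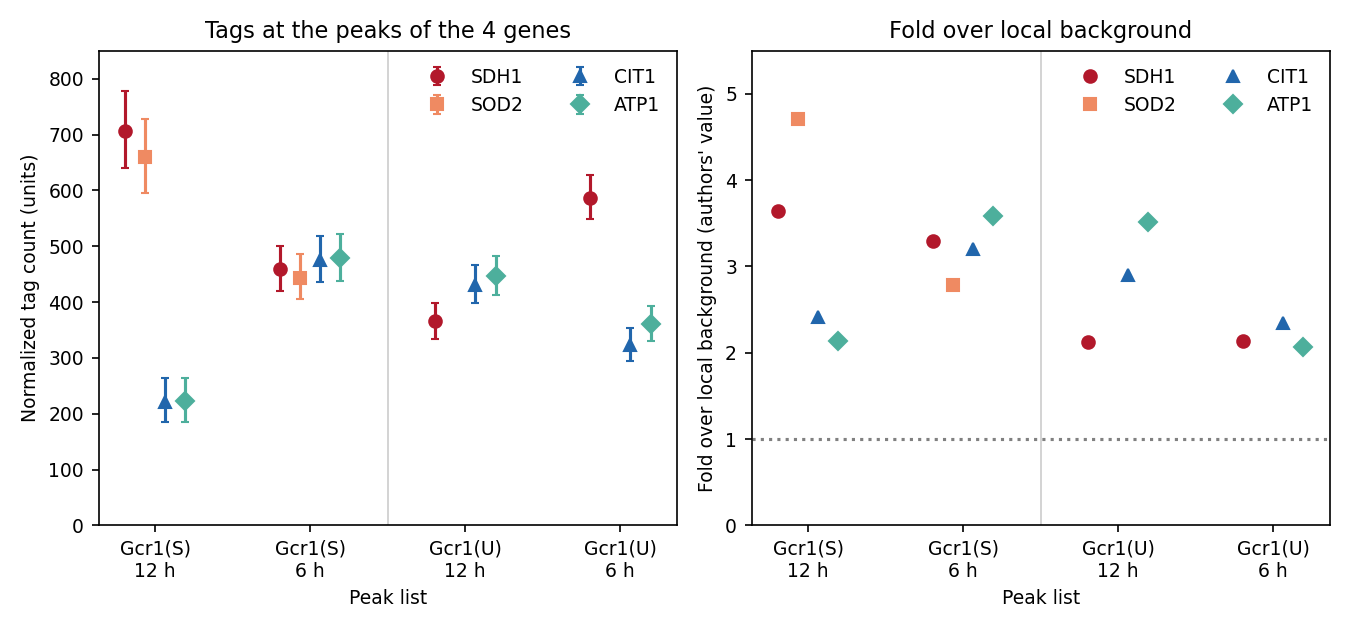
Left, normalized tag counts of each peak in each list with 95% counting intervals as bars. Right, the fold over local background from the authors' peak caller, with the dotted line at 1. In Gcr1(S) at 6 h the 4 genes lie together between 444 and 479 tags, while in Gcr1(S) at 12 h SDH1 and SOD2 lie at 706 and 659 and CIT1 and ATP1 at 222 and 222.5.

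Ratios between genes inside 1 list do not depend on the scaling between libraries. All these peaks shared 1 window width in a list (114 bp at 12 h and 170 bp at 6 h in the Gcr1(S) lists, 168 bp at 12 h and 182 bp at 6 h in the Gcr1(U) lists). The ratios can still depend on that width where peaks differ in shape, which was not tested. In Gcr1(S) at 6 h the 4 genes could not be told apart at this depth, with SDH1 at 0.958 times ATP1 (0.845 to 1.09) and SOD2 at 0.927 times ATP1 (0.817 to 1.05). In Gcr1(S) at 12 h SDH1 had 3.17 times the tags of ATP1 (2.60 to 3.90) and SOD2 2.96 times (2.42 to 3.64). SDH1 and SOD2 differed little from each other at 12 h, at a ratio of 1.07 (0.930 to 1.24). The order in Gcr1(U) ran the other way, with SDH1 at 0.820 times ATP1 (0.728 to 0.922) at 12 h and 1.63 times ATP1 (1.46 to 1.81) at 6 h. CIT1 and ATP1 kept a ratio near 1 throughout, from 0.895 (0.790 to 1.01) in Gcr1(U) at 6 h to 0.996 (0.775 to 1.28) in Gcr1(S) at 12 h. By fold over local background the ratio of SDH1 to ATP1 was 1.70 in Gcr1(S) at 12 h, 0.916 in Gcr1(S) at 6 h, 0.604 in Gcr1(U) at 12 h and 1.03 in Gcr1(U) at 6 h.

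Across times within Gcr1(S), the comparison asks how tags differed between exponential phase (6 h) and the diauxic shift (12 h). SDH1 had 1.54 times as many tags at 12 h as at 6 h (1.35 to 1.76) and SOD2 1.49 times (1.30 to 1.70). CIT1 had 0.466 times (0.381 to 0.567) and ATP1 0.465 times (0.381 to 0.565). SDH1 was thus past a fold of 1.5 upward, as were 14.0% of 207 nuclear peaks, and SOD2 lay just short of it. That share was 21 of 80 other nuclear peaks, 8 of 9 glycolytic promoters and 0 of 118 peaks near tRNA genes. Among the 80 other nuclear peaks SDH1 ranked 20 and SOD2 22. CIT1 and ATP1 were past 1.5 downward, as were 59.4% of nuclear peaks, so this alone does not set them apart, and the median of the tRNA class was 0.485 (lowest 0.399, highest 1.06). The glycolytic promoters, the known targets of Gcr1, had a median ratio of 1.84 (lowest 1.48, highest 2.31, 9 peaks). The median log2 ratio over the 207 nuclear peaks was -0.84, and 118 of them were near tRNA genes, the class of CIT1 and ATP1. The classes did not move together, since other nuclear peaks had a median ratio of 1.10 by tags. Theirs was 1.66 per bp of window and 1.25 by fold over local background, and a shift of the whole list was not tested. Taking the overall median out draws CIT1 and ATP1 towards 1 and raises SDH1 and SOD2. It left SDH1 at 2.76, SOD2 at 2.66, CIT1 at 0.837 (0.684 to 1.02) and ATP1 at 0.834 (0.682 to 1.01). CIT1 and ATP1 were then not separable from 1. Per bp of window CIT1 stood at 0.696 and ATP1 at 0.693, both short of 1.5-fold. By fold over local background the ratio was 1.11 at SDH1 and 0.753 at CIT1, neither past 1.5-fold, 1.69 at SOD2 and 0.596 at ATP1.

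Within Gcr1(U), the same comparison gave the opposite order. SDH1 had 0.623 times as many tags at 12 h as at 6 h (0.558 to 0.695), CIT1 1.34 times (1.18 to 1.51) and ATP1 1.24 times (1.10 to 1.39). SDH1 was past 1.5-fold downward, as were 4.04% of 272 nuclear peaks, and 2.94% of them had a lower ratio than SDH1. Per bp of window SDH1 stood at 0.675, short of 1.5-fold. CIT1 and ATP1 were not past 1.5-fold upward, as 2.94% of nuclear peaks were. Both lay inside the range of the tRNA class, whose median was 1.26 (lowest 0.939, highest 1.70), and SDH1 inside that of the glycolytic promoters (lowest 0.341, highest 0.701, 8 peaks). Over the 272 nuclear peaks the median log2 ratio was 0.08. By fold over local background the ratio at SDH1 was 0.991, so its decrease was seen in tags and not on that scale. Both folds (2.12 at 12 h and 2.14 at 6 h) were near the lowest listed, which leaves a listed peak little room to fall. On that scale ATP1 stood at 1.70 and CIT1 at 1.23.

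The time ratio of Gcr1(S) over that of Gcr1(U) brings both together. It was 2.47 at SDH1, 0.349 at CIT1 and 0.376 at ATP1. With the median over nuclear peaks of each form taken out, it was 4.69 at SDH1, 0.662 at CIT1 and 0.713 at ATP1, the last no longer past 1.5-fold. Peaks near tRNA genes weighed on these medians, as 118 of 207 peaks in Gcr1(S) and 98 of 272 in Gcr1(U). Per bp of window it was 3.41 at SDH1, 0.481 at CIT1 and 0.518 at ATP1. Among 137 nuclear peaks held by all 4 lists, 30 (21.9%) had more tags at 12 h in Gcr1(S) and fewer in Gcr1(U), as SDH1 did, and 89 (65.0%) went the other way, as CIT1 and ATP1 did. The first pattern held at all 8 glycolytic promoters, at 22 of 48 other nuclear peaks and at 0 of 81 peaks near tRNA genes, and the second at 77 of these 81. SDH1 ranked 10 of 137 by this ratio. By fold over local background the ratio was 1.12 at SDH1, 0.610 at CIT1 and 0.352 at ATP1. With 1 list a group, no test against the spread between replicates can be made.

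**Figure D3:**
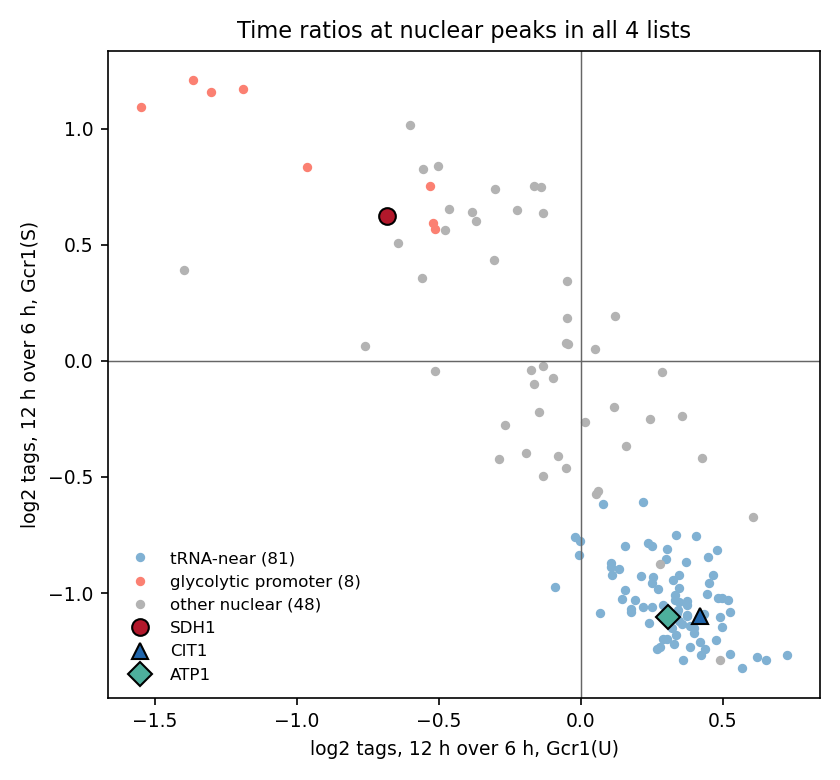
Log2 ratio of tags at 12 h over 6 h in Gcr1(S), vertical axis, against the same in Gcr1(U), horizontal axis, for the 137 nuclear peaks in all 4 lists. Each point is a peak coloured by class. SDH1 lies in the upper left with the glycolytic promoters and part of the other nuclear peaks, and CIT1 and ATP1 lie in the lower right within the tRNA class.

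Between the forms at 12 h, SDH1 had 1.93 times as many tags in Gcr1(S) as in Gcr1(U) (1.69 to 2.20), while CIT1 had 0.514 times (0.422 to 0.623) and ATP1 0.499 times (0.410 to 0.604). Of 138 nuclear peaks shared at 12 h, 18.1% were past 1.5-fold upward, SDH1 among them, and 59.4% past 1.5-fold downward, CIT1 and ATP1 among them. The classes differed: 17 of 49 other nuclear peaks, all 8 glycolytic promoters and 0 of 81 peaks near tRNA genes were past 1.5-fold upward. Of those 81, 76 were past it downward. SDH1 ranked 13 of the 49 other nuclear peaks. The median log2 ratio of -0.69 was set mostly by the peaks near tRNA genes, all 81 lower in Gcr1(S). Other nuclear peaks had a median ratio of 1.03 by tags, 1.52 per bp of window and 1.35 by fold over local background. With the overall median taken out, SDH1 stood at 3.11, CIT1 at 0.827 (0.679 to 1.00) and ATP1 at 0.803 (0.659 to 0.971), the last pair no longer past 1.5-fold. Nor were they past it per bp of window, with CIT1 at 0.758 and ATP1 at 0.736. By fold over local background SDH1 stood at 1.72 and ATP1 at 0.610, both past 1.5-fold, and CIT1 at 0.831.

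Between the forms at 6 h the differences were smaller. SDH1 had 0.781 times as many tags in Gcr1(S) as in Gcr1(U) (0.698 to 0.874), CIT1 1.47 times (1.30 to 1.67) and ATP1 1.33 times (1.17 to 1.50). By tags none was past 1.5-fold, as 14.6% of 137 shared nuclear peaks were upward and 5.84% downward. Per bp of window CIT1 stood at 1.58, past 1.5-fold. The median log2 ratio of 0.39 was again set mostly by 81 peaks near tRNA genes. With it taken out, SDH1 stood at 0.595, past 1.5-fold, CIT1 at 1.12 and ATP1 at 1.01. The direction at SDH1 turned with the measure: by fold over local background its ratio of Gcr1(S) over Gcr1(U) was 1.54, that of ATP1 1.73 and that of CIT1 1.36.

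The place of the SDH1 peak was fixed to within 2 bp over the 4 lists, while the other peaks moved. The centres of CIT1 spanned 68 bp and those of ATP1 104 bp. Of 137 nuclear peaks in all 4 lists 2 had a smaller span than SDH1, the medians being 19.5 bp for other nuclear peaks, 23.5 bp for glycolytic promoters and 39 bp for peaks near tRNA genes. At ATP1 the centres fell on either side of the tRNA gene: 14 bp before its first base in Gcr1(S) at 6 h and 9 bp before it in Gcr1(U) at 12 h, but 3 bp before its last base in Gcr1(S) at 12 h and on that base in Gcr1(U) at 6 h. At CIT1, along the direction of the tRNA gene SUF10, the centre lay 47 bp (12 h) and 3 bp (6 h) after its first base in Gcr1(S), and 34 bp (12 h) and 71 bp (6 h) after it in Gcr1(U). At both genes the 2 lists with more tags, Gcr1(S) at 6 h and Gcr1(U) at 12 h, were those centred nearer the start of the tRNA gene. The centre of SOD2 differed by 11 bp between its 2 lists.

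**Figure D4:**
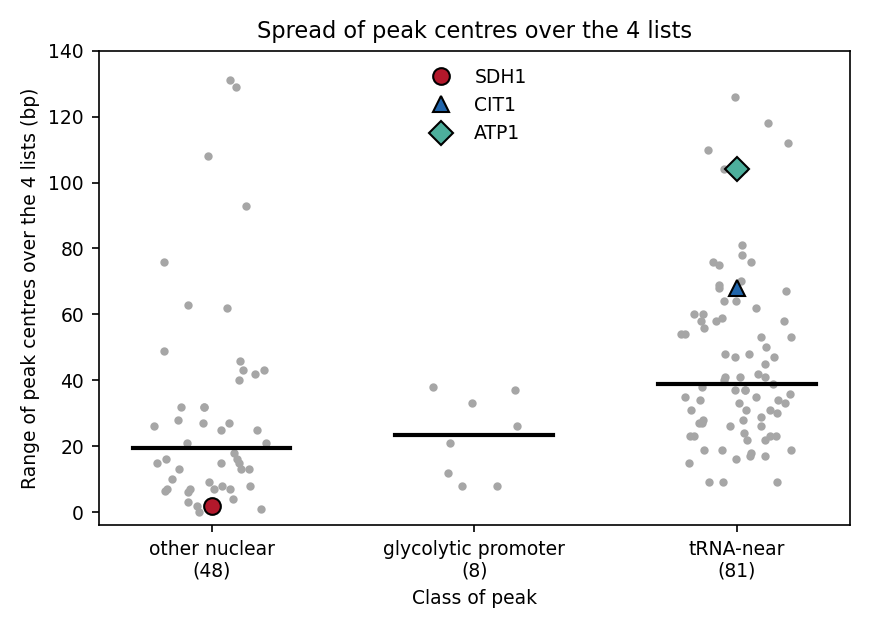
Range of peak centres over the 4 lists in bp for the 137 nuclear peaks in all of them, by class, with each peak a grey point and the class median a black line. SDH1 is among the lowest at 2 bp, and CIT1 (68 bp) and ATP1 (104 bp) lie above the tRNA class median of 39 bp.

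Few other genes of respiration had a peak. Of 108 genes in 10 lists (TCA cycle, pyruvate dehydrogenase, respiratory complexes, ATP synthase, antioxidant defence, glyoxylate cycle and their regulators), 6 (5.56%) had one in each Gcr1(S) list and 4 (3.70%) in each Gcr1(U) list. Over all nuclear coding genes the share was 3.08% (12 h) and 3.13% (6 h) in Gcr1(S), and 3.45% at each time in Gcr1(U). The 4 genes described here make up most of these counts, since they were chosen for having a peak. The TCA cycle list had SDH1 and CIT1 of 17 genes and ATP synthase had ATP1 of 16. Pyruvate dehydrogenase (4 genes), succinate dehydrogenase assembly and paralogues (7), electron entry and cytochrome c (8), the cytochrome bc1 complex (9), cytochrome c oxidase (10) and the glyoxylate cycle (5) had 0 in any list. For comparison the glycolysis list had 9 of 17 genes in Gcr1(S) and 8 of 17 in Gcr1(U).

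The other 2 genes of these lists with a peak were SNF1 and CCS1. SNF1 encodes the kinase that lifts glucose repression, and its peak was centred 52 to 59 bp inside the gene (IV 1412370 to 1412484 in Gcr1(S) at 12 h). It had 562 tags in Gcr1(S) at 12 h, 362 in Gcr1(S) at 6 h, 288 in Gcr1(U) at 12 h and 316 in Gcr1(U) at 6 h. The ratio of 12 h over 6 h was 1.55 (1.34 to 1.80) in Gcr1(S) and 0.912 (0.797 to 1.04) in Gcr1(U), where it was not separable from 1 at this depth. CCS1 encodes the copper chaperone of the cytosolic superoxide dismutase. Its peak was listed for Gcr1(S) only, 673 bp upstream at 12 h with 241 tags and 649 bp upstream at 6 h with 350 tags, a ratio of 0.687 (0.562 to 0.837). The direction of this ratio turned with the scale: with the median over nuclear peaks taken out CCS1 stood at 1.23, per bp of window at 1.02 and by fold over local background at 1.09.

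The peaks most like each gene were sought by the distance between log2 tags over the lists, each peak centred on its own mean. For SDH1 the 3 nearest of 136 nuclear peaks over 4 lists were those at CDC19, the pyruvate kinase gene (distance 0.13), between GPP1, a glycerol phosphatase gene, and its neighbours (0.22), and at GCR1 itself (0.27). For CIT1 and ATP1 all 3 nearest peaks overlapped tRNA genes, at distances of 0.04 to 0.05 for CIT1 and 0.05 to 0.06 for ATP1. For SOD2, over 2 lists and 68 peaks of Gcr1(S) alone, they lay inside SPG3 (0.02), inside LEU3, a regulator of leucine synthesis (0.06), and upstream of FUN26 (0.07).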

How the data were processed

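Per the labels, DNA bound by TAP-tagged Gcr1 was recovered on IgG-sepharose from cells fixed with 1% formaldehyde for 25 min, amplified over 15 cycles and read for 50 cycles. The submitters' processing notes name the build sacCer3 and the tools BWA 0.7.15, HOMER, bedtools, Picard 2.92, FastQC 0.10.1 and bcl2fastq 1.8.2, with no roles. The authors deposited 1 HOMER peak list per group, and how replicates were combined is not stated there. Per the file headers each peak has a normalized tag count (a signal scaled to library size), a findPeaks score, a fold over local background (a ratio) and its p-value.

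A grid was fitted to the deposited tag values of each list, chosen to hold the largest share of them. It held 100% within 0.05 units, against 11.6% to 30.0% by chance for a grid set without such a search. Its step was taken as 0.5 tags because the deposited scores are multiples of 0.5. So 1 unit stood for 0.582 tags in Gcr1(S) at 12 h, 1.07 in Gcr1(S) at 6 h, 1.42 in Gcr1(U) at 12 h and 1.50 in Gcr1(U) at 6 h. Intervals are exact (binomial for ratios, Poisson for levels), with scipy 1.17.1. They cover counting error only, as PCR copies carried no molecular identifiers. The intervals for ratios, but not those for levels, were checked on simulated counts. These were whole Poisson counts, the model that the intervals assume. The check therefore covers neither steps of 0.5 tags nor PCR copies. The expected counts simulated were above the 129 derived tags of CIT1 in Gcr1(S) at 12 h.

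Peaks were matched by overlap of at least 1 bp, and mitochondrial peaks were left out of all classes. Genes came from the RefSeq table of assembly R64 (275 nuclear tRNA genes), with strand read from the locus tag. Within each form the peaks of the 2 times are matched, so presence at both times is not independent. Genes, lists and rules were chosen with earlier results of these data known. Named genes are the 4 genes, those sharing their peaks, listed respiratory genes with a peak, and the 3 peaks most alike. Settings tried were centring, tags per bp, fold over local background, the tag step and matching by centres within 500 bp. Others were a range of 500 bp upstream to 0 bp downstream, the upper 50% of scores, the nearest start codon and other tRNA distances. No sequence of these sites was used.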

Additional observations from a re-analysis of the deposited data

Results flagged for a closer look

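At SDH1, CIT1 and ATP1 tags moved one way in Gcr1(S) between 6 h and 12 h and the opposite way in Gcr1(U). The ratio of 12 h over 6 h in Gcr1(S), divided by that in Gcr1(U), was 2.47 at SDH1, 0.349 at CIT1 and 0.376 at ATP1. Its size depended on the scale. With the medians over nuclear peaks taken out it was 4.69 at SDH1, 0.662 at CIT1 and 0.713 at ATP1. By fold over local background it was 1.12 at SDH1, 0.610 at CIT1 and 0.352 at ATP1. The difference was not tested, since each group has a single list. Opposite directions were common among the 137 nuclear peaks in all 4 lists: 119 of them moved in opposite directions in the forms.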

How the results depend on the processing

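No paired analysis was possible because each group has 1 list and no value per replicate, and for the same reason no replicate could be left out. Matching by centres within 500 bp left all 13 ratios as they were. The grid step does not enter the ratios, and taking it as 1 tag only narrowed the intervals, to 1.76 to 2.12 for SDH1 between the forms at 12 h. The other tRNA distances left the counts as they were. The nearest start codon left those of the 4 genes, but the listed genes with a peak in Gcr1(S) fell to 5 at both times, against 6, as CCS1 dropped out. Centring on shared nuclear peaks moved the ratio of forms at 6 h to 0.595 at SDH1, 1.12 at CIT1 and 1.01 at ATP1. It moved that at 12 h to 3.11 at SDH1, 0.827 at CIT1 and 0.803 at ATP1. The time ratio in Gcr1(S) moved to 2.76 at SDH1, 2.66 at SOD2, 0.837 at CIT1 and 0.834 at ATP1. In these comparisons most shared nuclear peaks were near tRNA genes. Tags per bp moved the ratio of forms at 12 h to 2.85 at SDH1, 0.758 at CIT1 and 0.736 at ATP1, and the time ratio in Gcr1(S) to 2.30 at SDH1, 2.22 at SOD2, 0.696 at CIT1 and 0.693 at ATP1. Fold over local background turned the ratio of forms at 6 h at SDH1 to 1.54 and gave 1.73 at ATP1. It gave 0.831 at CIT1 and 0.610 at ATP1 for the forms at 12 h, 0.991 at SDH1 and 1.70 at ATP1 for the times in Gcr1(U), and 1.11 at SDH1, 0.753 at CIT1 and 0.596 at ATP1 for the times in Gcr1(S). With the range cut to 500 bp upstream, 2 of the 4 genes, SDH1 and SOD2, had a peak in each Gcr1(S) list and 1, SDH1, in each Gcr1(U) list, and the 108 listed genes gave the same 2 and 1. In the upper 50% of scores Gcr1(S) at 12 h kept SDH1 and SOD2 (2 genes), and SNF1 as the only other listed gene (3 in all), and Gcr1(S) at 6 h kept the 4 genes without SNF1 and CCS1 (4 in all). The causes were not tested. Depth limits Gcr1(S) at 12 h most, with 129 derived tags at CIT1 against 611 in Gcr1(U) at 12 h.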

Other observations

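The position of peak centres on tRNA genes differed between the lists over the whole class. Among 81 tRNA genes with a peak in all 4 lists, the median centre lay 46 bp (12 h) and 24 bp (6 h) after the first base of the tRNA gene in Gcr1(S), and 36 bp (12 h) and 48 bp (6 h) in Gcr1(U). At 38 of the 81 (46.9%), the centres of Gcr1(S) at 6 h and Gcr1(U) at 12 h both lay nearer the start of the tRNA gene than those of the other 2 lists, as at CIT1 and ATP1, and at 4 (4.94%) the order was the reverse. These 2 lists also had the more tags at tRNA genes, with medians over the same 81 peaks of 467 in Gcr1(S) at 6 h and 405 in Gcr1(U) at 12 h, against 224 in Gcr1(S) at 12 h and 327 in Gcr1(U) at 6 h. Window widths differed between the lists too, and the part of window width or depth in these positions was not tested.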
